A study of Mus musculus with 12 samples.

Results

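The genes described here serve homologous recombination and the Fanconi anemia pathway, the systems that repair broken and crosslinked DNA with an intact copy as template. They were chosen by name and not by a cutoff on measured values, but with earlier results of these data known. The list holds 34 genes, of which 32 were measured here among 19938 genes in all, while Xrcc2 and Rbbp8 were not analysed here. By role, 5 of the 32 belong to the axis from Brca1 to Brca2 and 5 to strand exchange. The Fanconi core complex with its anchor gives 8, the pair Fancd2 and Fanci 2, the processing of joint molecules 4, and end resection with break sensing 3. The checkpoint kinases give 4, and Msh6, which recognises mismatched bases, stands alone.

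All cells were NIH3T3, an established line of mouse fibroblasts, and RNA came from the G1 fraction collected by sorting. Untreated cells (3 arrays, 0 h) were compared with cells kept in 1 mM difluoromethylornithine (DFMO) for 12 h (2 arrays), 24 h (3 arrays), 48 h (2 arrays) or 96 h (2 arrays). DFMO inhibits ornithine decarboxylase, which makes putrescine, so the drug depletes cells of polyamines. The question was how transcription responds as that depletion proceeds. Every untreated array belongs to 0 h, so time in culture and exposure to the drug cannot be told apart.

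In homologous recombination a broken end is first trimmed to a single strand. BRCA1 and its partners then bring in BRCA2, and the strand is made ready to invade the sister chromatid. At a crosslink that blocks a replication fork, the Fanconi core complex attaches ubiquitin to FANCD2 and FANCI, which call in nucleases and the same recombination proteins. The kinases ATM and ATR sense the damage and pass it to CHEK2 and CHEK1. Because a sister chromatid is needed, recombination is used mainly in S and G2, and many of its genes are known to be transcribed with the cell cycle.

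Values are log2 levels, so a difference of 1 is 2-fold, and array medians lay between 4.13 and 4.20. Within groups, arrays gave r between 0.994 and 0.998 over all genes. Of 14 leukocyte markers, which fibroblasts should lack, the median level was 3.68 in untreated cells and 3.72 at 96 h. That is the low end of the scale, where background hides further loss. The 14 fibroblast markers measured had array means between 10.16 and 10.22 in untreated cells and between 9.77 and 9.82 at 96 h. Of them 8 fell and 1 rose at 96 h, where 10.1% of all genes fell and 11.8% rose. Thy1, a fibroblast surface protein, fell by 2.35 ± 0.11 (adjusted p = 7.3e-07). Among the leukocyte markers 0 fell and 1 rose, Lyz2, a lysozyme of macrophages, by 1.90 ± 0.30 (adjusted p = 0.00137). Of 12 epithelial and endothelial markers 0 fell and 2 rose, Cdh1 by 0.58 ± 0.07 and Tek by 0.34 ± 0.06. The rises in these 2 lists were near the share over all genes. Changes are given with limma's standard error (SE), and a gene was called at a Benjamini-Hochberg adjusted p under 0.05 over all 19938 genes, with n = 2 against 3 at 48 h and 96 h. The labels speak of biological replicates without saying how the cultures were separated, so p-values measure the spread between these arrays.

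Many genes of recombination and Fanconi repair were lower at 48 h, and most of them were at 96 h. At 96 h 24 of 32 members were lower, against 10.1% of all genes, and 2 were higher, against 11.8%. The median change of the members was -1.09, where that of all genes was 0.00035. The 24 fallen genes include 17 that lost at least 2-fold and 9 that lost at least 4-fold, led by Rad54l, Chek1 and Brca1. The risen genes were Mus81 and Atr, and 6 members were not called. In 25 members both 96 h arrays lay below all untreated arrays, as in 21.4% of all genes, and those are the 24 fallen ones and Fancm. Both lay above in 2 members, Mus81 and Atr, as in 23% of all genes.

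At 48 h 11 of 32 members were lower, against 3.17% of all genes, and 0 were higher, against 2.65%. Those 11 were Brca1, Rad54l, Rad54b, Fanca, Fancb, Fancc, Blm, Eme1, Exo1, Chek2 and Msh6. The median change was -0.38, beside -0.02 over all genes, and 28 of the 32 changes were below 0. In 20 members both 48 h arrays lay below all untreated arrays, as in 25.2% of all genes. By limma's unadjusted p, 19 members lay under 0.05 in either direction, against 19.8% of all genes, with Mus81 on the higher side. The calls of Rad54b and Chek2 ended without either 48 h replicate, and those of Fancc, Blm and Eme1 without replicate 2. Either fit leaves a single array at 48 h, and fewer of all genes were called lower in it too. Without replicate 2 the count of 11 was smaller. It became 7 once 3 arrays were dropped together (the third untreated, the second at 12 h and the third at 24 h), arrays that deviated alike and were singled out after the data were seen.

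At 12 h and 24 h limma called 0 of 32 members in either direction, as it called 0% of all genes. Unadjusted, 1 member at 12 h and 2 at 24 h had a p under 0.05, where 3.72% and 7.92% of all genes did. Rmi1 accounted for the one at 12 h, with a change of 0.34 (adjusted p = 0.989), and was again among them at 24 h with 0.20. Chek1 was the other at 24 h, with 0.31 (adjusted p = 0.563). Median member changes were -0.03 at 12 h and -0.02 at 24 h, the latter with 16 members above their untreated mean and 16 below it. At 12 h both arrays lay below all untreated ones in 4 members, as in 11.7% of all genes, and above them in 2, as in 6.35%. At 24 h all arrays lay below in 1 member, as in 9.26% of all genes, and above in 2, as in 4.48%.

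**Figure D1:**
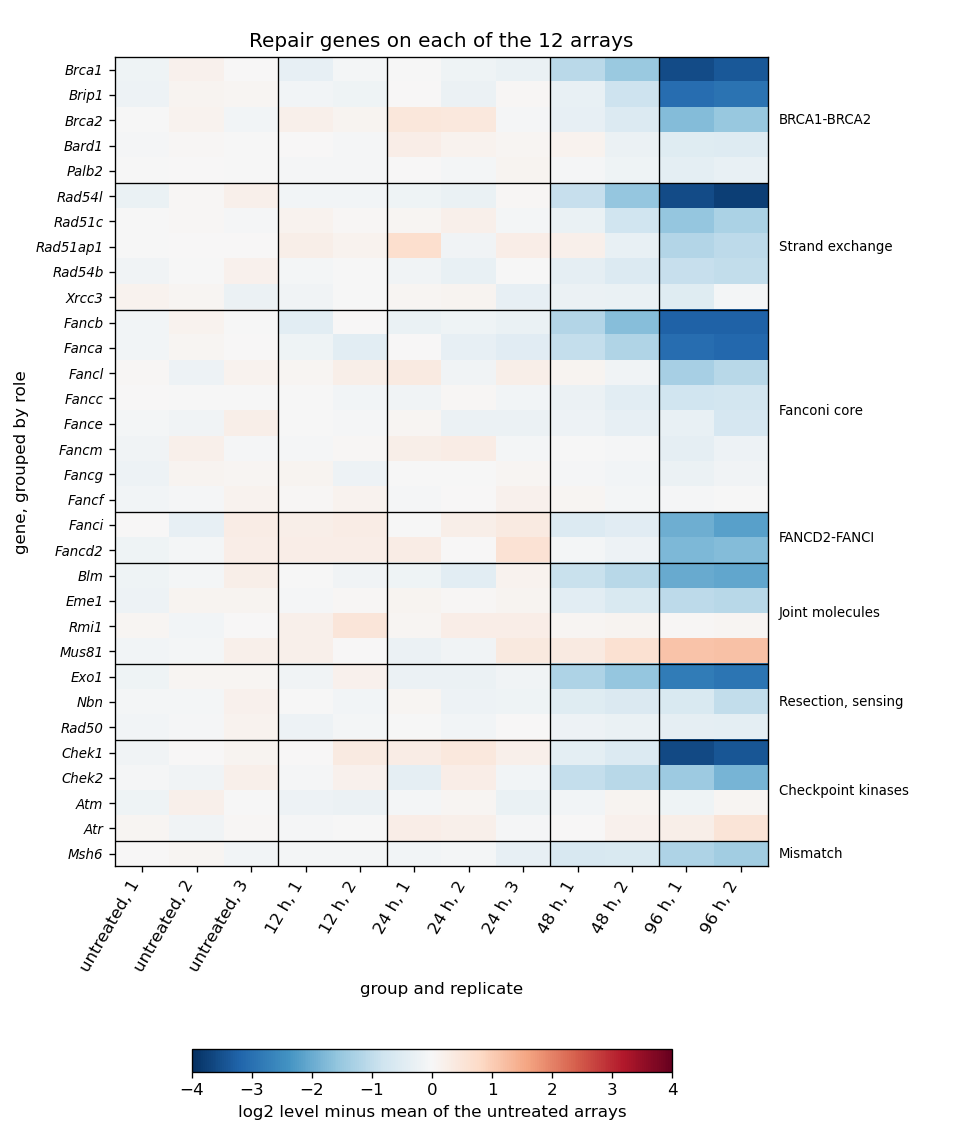
Log2 level of each of the 32 genes (rows, grouped by role) on each of the 12 arrays (columns, by group and replicate), drawn as the difference from the mean of the untreated arrays. The 24 genes called lower at 96 h are blue there, deepest in Rad54l, and the row of Mus81 is red.

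Cell cycle genes fell at the same times. Of 21 S phase genes measured, 15 fell at 48 h and 21 at 96 h, with medians of -0.82 and -2.98. Of 19 genes of G2 and mitosis 13 fell at 48 h and 19 at 96 h, with medians of -0.87 and -2.87. The mean level of the S phase genes lay between 8.73 and 9.02 on the untreated arrays and between 5.90 and 5.98 at 96 h. For the G2 and mitosis genes it went from between 7.88 and 8.09 to between 4.86 and 4.94. The part of cell cycle position in the fall of the repair genes was not tested. In RNA from a sorted bulk fraction, fewer cells that express a gene and less RNA per cell cannot be told apart.

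The promoters of the genes that fell most and of those that moved least are shown first, since most members fell together and their promoters can be set side by side. Each window runs from 250 bases before to 50 bases after the annotated start, 5′ to 3′ on the gene's strand, from RefSeq on GRCm38.p6. They are the 5 largest falls at 96 h with an entry in that table (Rad54l, Chek1, Brca1, Fancb, Fanca), the 2 smallest changes (Fancf, Atm) and the largest rise, Mus81, added after its values were seen. Their positions are Rad54l chr4:116123641-116123940 (-), Chek1 chr9:36726609-36726908 (-), Brca1 chr11:101551906-101552205 (-), Fancb chrX:164980342-164980641 (+), Fanca chr8:123318527-123318826 (-), Fancf chr7:51862218-51862517 (-), Atm chr9:53536622-53536921 (-) and Mus81 chr19:5488330-5488629 (-). Capitals mark matches, on either strand, to the CCAAT box or to an E2F-type or CHR motif as spelled out below.
Rad54l: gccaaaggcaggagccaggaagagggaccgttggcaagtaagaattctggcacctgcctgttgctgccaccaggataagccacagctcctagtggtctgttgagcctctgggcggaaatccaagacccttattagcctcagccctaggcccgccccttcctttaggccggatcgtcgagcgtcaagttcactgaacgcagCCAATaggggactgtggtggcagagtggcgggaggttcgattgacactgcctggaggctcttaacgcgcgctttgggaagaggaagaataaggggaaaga
Chek1: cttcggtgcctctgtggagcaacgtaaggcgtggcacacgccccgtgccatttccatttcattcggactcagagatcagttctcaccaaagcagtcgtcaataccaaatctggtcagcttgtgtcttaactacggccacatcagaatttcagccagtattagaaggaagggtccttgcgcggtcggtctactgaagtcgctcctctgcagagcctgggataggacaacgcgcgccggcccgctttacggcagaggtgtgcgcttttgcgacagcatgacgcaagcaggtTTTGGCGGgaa
Brca1: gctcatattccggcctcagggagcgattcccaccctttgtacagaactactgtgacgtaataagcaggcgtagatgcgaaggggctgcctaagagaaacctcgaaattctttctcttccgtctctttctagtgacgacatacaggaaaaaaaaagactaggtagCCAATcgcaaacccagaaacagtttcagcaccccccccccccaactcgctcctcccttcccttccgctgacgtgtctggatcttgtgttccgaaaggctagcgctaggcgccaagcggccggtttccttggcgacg
Fancb: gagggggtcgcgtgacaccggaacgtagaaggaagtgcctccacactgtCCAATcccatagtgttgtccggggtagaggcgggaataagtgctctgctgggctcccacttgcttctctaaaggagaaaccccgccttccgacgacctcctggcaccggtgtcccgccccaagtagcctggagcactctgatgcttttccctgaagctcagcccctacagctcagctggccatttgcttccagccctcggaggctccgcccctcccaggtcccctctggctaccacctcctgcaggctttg
Fanca: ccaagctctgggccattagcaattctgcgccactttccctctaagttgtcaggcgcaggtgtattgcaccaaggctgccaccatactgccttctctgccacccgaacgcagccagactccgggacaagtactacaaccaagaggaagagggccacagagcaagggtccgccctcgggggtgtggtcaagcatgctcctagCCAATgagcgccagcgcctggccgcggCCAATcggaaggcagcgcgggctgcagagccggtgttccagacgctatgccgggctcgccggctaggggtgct
Fancf: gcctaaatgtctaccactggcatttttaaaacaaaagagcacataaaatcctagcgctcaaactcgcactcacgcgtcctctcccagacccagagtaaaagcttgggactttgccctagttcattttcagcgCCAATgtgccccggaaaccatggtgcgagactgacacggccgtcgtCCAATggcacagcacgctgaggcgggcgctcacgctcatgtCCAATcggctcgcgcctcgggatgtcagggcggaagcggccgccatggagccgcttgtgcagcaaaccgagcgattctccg
Atm: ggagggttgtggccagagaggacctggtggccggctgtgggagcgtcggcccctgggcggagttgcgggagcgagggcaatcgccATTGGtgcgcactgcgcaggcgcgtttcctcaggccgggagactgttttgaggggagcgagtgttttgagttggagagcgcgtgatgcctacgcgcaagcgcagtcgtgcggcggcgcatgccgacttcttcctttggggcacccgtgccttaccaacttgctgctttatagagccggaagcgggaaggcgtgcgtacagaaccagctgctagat
Mus81: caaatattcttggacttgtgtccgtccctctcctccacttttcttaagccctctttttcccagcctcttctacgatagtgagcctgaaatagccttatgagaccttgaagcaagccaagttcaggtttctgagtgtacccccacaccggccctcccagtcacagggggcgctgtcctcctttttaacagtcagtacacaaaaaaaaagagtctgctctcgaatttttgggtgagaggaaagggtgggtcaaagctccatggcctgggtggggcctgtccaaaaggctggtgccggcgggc

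Windows were found for 27 of the 32 members and searched on both strands. E2F factors drive genes of the G1 to S transition. The E2F-type letters searched were TTTCCCGC, TTTGGCGC, TTTCGCGC and TTTGGCGG, each of which shares 7 of its 8 letters with at least 1 other. They occurred in 7 of 27 member windows and in 2.37% of all 32851 windows of the same length. By the 96 h call, that is 6 of 19 fallen members and 1 of the other 8, Fancg. The CHR element TTTGAA, known from genes expressed in G2 and mitosis, occurred in 2 of 27 member windows (Bard1 and Eme1) and in 17.9% of all. The letters CCAAT, bound by NF-Y, occurred in 17 of 27 and in 37.4% of all, in 12 of 19 fallen members and 5 of the other 8. Fancf held 3 CCAAT matches, and Fanci, Fancl, Atr and Mus81 held no match of any kind. A match describes the letters only, and these 8-letter forms cover part of what E2F factors bind. Each member gave 1 window, whereas the 32851 cover every promoter entry, and base composition was not matched. The 7 E2F-type matches are shown with up to 10 bases on each side, capitals marking the match, and in Chek2 and Brca2 the match reads on the opposite strand.
Chek1: gcaagcaggtTTTGGCGGgaa
Chek2: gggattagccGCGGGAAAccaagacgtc
Brca2: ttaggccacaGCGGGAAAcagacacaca
Rad51c: tttccagcgcTTTCGCGCctcttgctct
Msh6: tcctcccgacTTTCCCGCcagcggcggc
Bard1: cgccgctcagTTTCCCGCtcaggaagtt
Fancg: ttcttttcagTTTCCCGCggaaccgtct

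**Figure D2:**
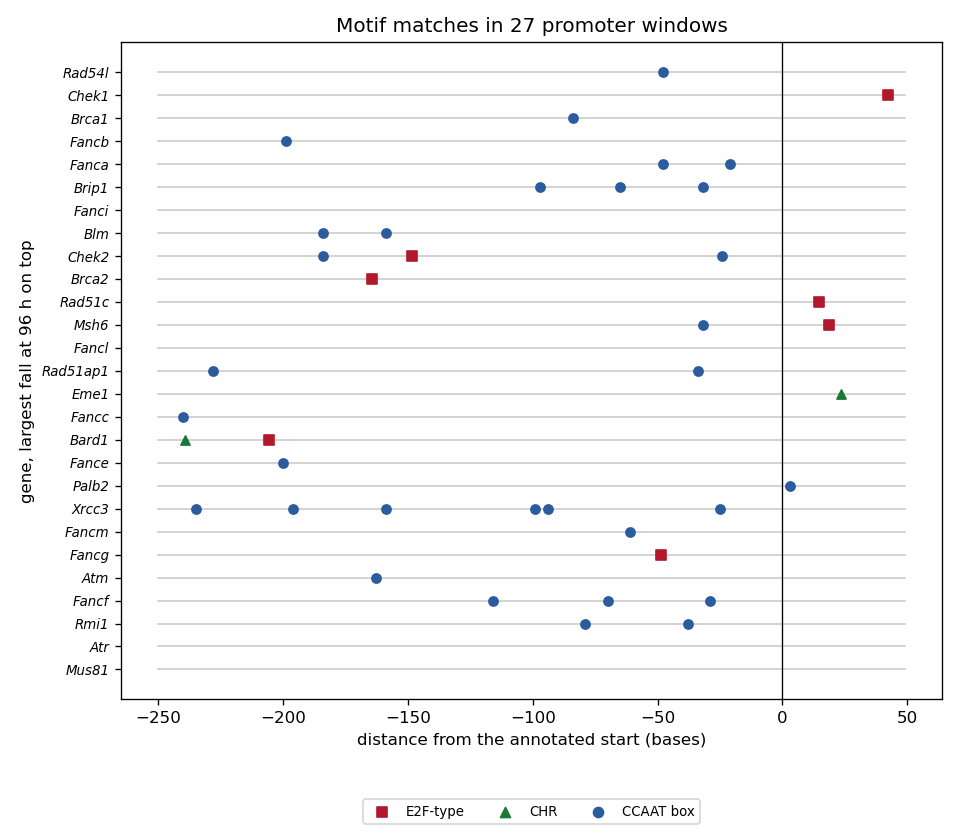
Positions of the motif matches in 27 promoter windows, 1 row per gene with the largest fall at 96 h on top; the x axis is the distance in bases from the annotated start. Squares are E2F-type matches (7 genes), triangles CHR (2 genes) and circles CCAAT (17 genes); the lowest row, Mus81, holds none.

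Along the axis from BRCA1 to BRCA2, all 5 members were lower at 96 h and 1 of 5 at 48 h, with medians of -1.63 and -0.43. Brca1, the ubiquitin ligase subunit that commits breaks to recombination, lost most. Brca1 read 7.35, 7.69 and 7.56 in untreated cells, 7.20 and 7.44 at 12 h, 7.51, 7.37 and 7.26 at 24 h, then 6.45 and 6.04 at 48 h, and 3.95 and 4.16 at 96 h. Both 48 h arrays lay below every earlier array and both 96 h arrays lay lower still. It fell by 1.29 ± 0.15 (adjusted p = 0.00177) within 48 h and fell by 3.48 ± 0.15 after 96 h (adjusted p = 3.13e-07), which is 11.2-fold. Brip1 is the helicase that binds BRCA1. Brip1 read 6.99, 7.31 and 7.26 in untreated cells, 7.08 and 7.02 at 12 h, 7.20, 6.96 and 7.24 at 24 h, then 6.88 and 6.37 at 48 h, and 4.14 and 4.24 at 96 h. Both 48 h arrays lay below every earlier array, replicate 1 by little, and the change was -0.56 ± 0.15 at 48 h (adjusted p = 0.0665). It fell by 3.00 ± 0.15 after 96 h (adjusted p = 1.01e-06), or 7.98-fold.

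Brca2 encodes a large protein that acts on the single strand. Brca2 read 5.83, 6.0 and 5.73 in untreated cells, 6.07 and 5.97 at 12 h, 6.30, 6.27 and 5.82 at 24 h, then 5.53 and 5.31 at 48 h, and 4.11 and 4.34 at 96 h. Its 24 h replicates 1 and 2 were above all untreated arrays and its 96 h arrays were the lowest. It changed by -0.43 ± 0.15 at 48 h (adjusted p = 0.137) and fell by 1.63 ± 0.15 after 96 h (adjusted p = 5.33e-05). Bard1, the obligate partner of BRCA1, fell by 0.50 ± 0.10 after 96 h (adjusted p = 0.00464) on the cluster with the highest mean level, having been at -0.05 ± 0.10 at 48 h (adjusted p = 0.824). Its other clusters read larger losses at 96 h, of -0.84 ± 0.42 and -1.82 ± 0.19, so the size of the fall depends on the probes used, and the call ended when the cluster with the lowest mean was taken. Palb2, which bridges BRCA1 and BRCA2, fell by 0.35 ± 0.07 after 96 h (adjusted p = 0.00394). Its untreated mean of 4.41 left little room above the low end.

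Of the 5 strand exchange genes measured 4 were lower at 96 h and 2 at 48 h, with medians of -1.11 and -0.44. Rad54l, a motor protein that works on the recipient duplex, had the largest loss of all 32 genes. Rad54l read 7.29, 7.60 and 7.77 in untreated cells, 7.45 and 7.43 at 12 h, 7.38, 7.28 and 7.59 at 24 h, then 6.62 and 6.02 at 48 h, and 3.99 and 3.80 at 96 h. The groups to 24 h overlapped, and the 48 h and 96 h arrays each formed a lower step. It fell by 1.23 ± 0.18 (adjusted p = 0.00592) within 48 h and fell by 3.66 ± 0.18 after 96 h (adjusted p = 1.01e-06), which is 12.6-fold, to a mean of 3.89 at the low end of the scale. Rad54b, its relative, fell too. Rad54b read 4.71, 4.83 and 5.01 in untreated cells, 4.77 and 4.83 at 12 h, 4.70, 4.55 and 4.85 at 24 h, then 4.51 and 4.31 at 48 h, and 3.91 and 3.88 at 96 h. It fell by 0.44 ± 0.11 (adjusted p = 0.042) within 48 h and fell by 0.95 ± 0.11 after 96 h (adjusted p = 0.000173), again to a mean of 3.90. Its 48 h call ended without either 48 h replicate and under other settings.

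Rad51c, a Fanconi anemia gene as well, was called lower at 96 h and not at 48 h. Rad51c read 6.83, 6.90 and 6.80 in untreated cells, 6.98 and 6.88 at 12 h, 6.91, 7.04 and 6.77 at 24 h, then 6.58 and 6.05 at 48 h, and 5.29 and 5.58 at 96 h. The 48 h arrays differed by more than the untreated ones did among themselves. The change was -0.53 ± 0.15 at 48 h (adjusted p = 0.0748), and it fell by 1.40 ± 0.15 after 96 h (adjusted p = 0.000128). Rad51ap1 stimulates strand invasion. Rad51ap1 read 5.26, 5.30 and 5.28 in untreated cells, 5.52 and 5.42 at 12 h, 5.94, 5.15 and 5.56 at 24 h, then 5.47 and 4.97 at 48 h, and 4.12 and 4.23 at 96 h. The early arrays scattered, with 24 h replicate 1 highest of all, and the 96 h arrays were the lowest. It changed by -0.06 ± 0.20 at 48 h (adjusted p = 0.908) and fell by 1.11 ± 0.20 after 96 h (adjusted p = 0.00338). Xrcc3, whose protein pairs with that of Rad51c, was not called. Xrcc3 read 5.02, 4.95 and 4.63 in untreated cells, 4.74 and 4.86 at 12 h, 4.94, 4.99 and 4.54 at 24 h, then 4.64 and 4.62 at 48 h, and 4.39 and 4.79 at 96 h. Its 96 h arrays lay on either side of the lowest untreated array, and the change was -0.28 ± 0.17 at 96 h (adjusted p = 0.33).

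Members of the Fanconi core complex changed unequally. Of 8 members 5 were lower at 96 h and 3 at 48 h, with a range at 96 h from -3.22 to -0.03. Fancb and Fanca, subunits of the ligase assembly, fell most. Fancb read 7.61, 7.83 and 7.68 in untreated cells, 7.28 and 7.74 at 12 h, 7.44, 7.52 and 7.43 at 24 h, then 6.54 and 6.0 at 48 h, and 4.49 and 4.48 at 96 h. Both 96 h arrays read alike, and no array of 48 h reached the earlier range. It fell by 1.44 ± 0.16 (adjusted p = 0.0017) within 48 h and fell by 3.22 ± 0.16 after 96 h (adjusted p = 9.88e-07), or 9.32-fold. Fanca read 7.10, 7.29 and 7.24 in untreated cells, 7.05 and 6.79 at 12 h, 7.23, 6.88 and 6.75 at 24 h, then 6.26 and 6.0 at 48 h, and 4.17 and 4.06 at 96 h. Fanca too went down in both late groups without overlap. It fell by 1.08 ± 0.14 (adjusted p = 0.00335) within 48 h and fell by 3.10 ± 0.14 after 96 h (adjusted p = 5.77e-07), or 8.55-fold.

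Fancl, the ligase subunit that carries the catalytic activity, was called lower only at 96 h among the 4 times. Fancl read 8.13, 7.89 and 8.24 in untreated cells, 8.17 and 8.33 at 12 h, 8.43, 7.95 and 8.33 at 24 h, then 8.21 and 7.95 at 48 h, and 6.76 and 6.98 at 96 h. Its 48 h arrays lay within the untreated range, 3 of the 12 h and 24 h arrays lay above it, and both 96 h arrays lay far below it. It changed by -0.01 ± 0.16 at 48 h (adjusted p = 0.989) and fell by 1.21 ± 0.16 after 96 h (adjusted p = 0.000455), or 2.32-fold. Fancc, another subunit of the core complex, fell by smaller steps. Fancc read 5.90, 5.90 and 5.90 in untreated cells, 5.88 and 5.79 at 12 h, 5.77, 5.95 and 5.78 at 24 h, then 5.67 and 5.48 at 48 h, and 5.12 and 5.17 at 96 h. The untreated arrays read alike, and the late arrays lay below every earlier one. It fell by 0.33 ± 0.07 (adjusted p = 0.0322) within 48 h and fell by 0.76 ± 0.07 after 96 h (adjusted p = 7.88e-05), and its 48 h call was lost under several settings. Fance, which contacts FANCD2, fell by 0.48 ± 0.14 after 96 h (adjusted p = 0.0386), a call that ended without untreated replicate 1 or 3, without 96 h replicate 2 and under other settings. limma's F test over the 4 times did not call Fance (adjusted p = 0.188).

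The other 3 members of that group, Fancm, Fancg and Fancf, were not called against untreated cells at any time, although Fancm, like Xrcc3, was called lower at 96 h with the replicate number as a block. FANCM is the helicase that anchors the complex to DNA. Fancm read 6.07, 6.40 and 6.14 in untreated cells, 6.16 and 6.24 at 12 h, 6.43, 6.51 and 6.12 at 24 h, then 6.18 and 6.16 at 48 h, and 5.86 and 6.01 at 96 h. Its 96 h arrays were just below the untreated ones, and the change was -0.27 ± 0.12 at 96 h (adjusted p = 0.183). Fancg read 4.78, 5.09 and 5.06 in untreated cells, 5.09 and 4.78 at 12 h, 4.97, 4.96 and 5.06 at 24 h, then 4.92 and 4.87 at 48 h, and 4.75 and 4.82 at 96 h. FANCG, a scaffold subunit, had overlapping groups throughout, with -0.19 ± 0.11 at 96 h (adjusted p = 0.297). Fancf read 4.50, 4.55 and 4.76 in untreated cells, 4.67 and 4.75 at 12 h, 4.55, 4.61 and 4.77 at 24 h, then 4.67 and 4.52 at 48 h, and 4.56 and 4.59 at 96 h. FANCF, an adaptor subunit, stayed within its untreated range at 48 h and 96 h, with -0.03 ± 0.09 at 96 h (adjusted p = 0.885). Fancg and Fancf were among 5 members whose untreated mean was under 5, with Palb2, Rad54b and Xrcc3. A loss in them would be compressed by background, so a p that misses the threshold does not show that their RNA was unchanged.

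**Figure D3:**
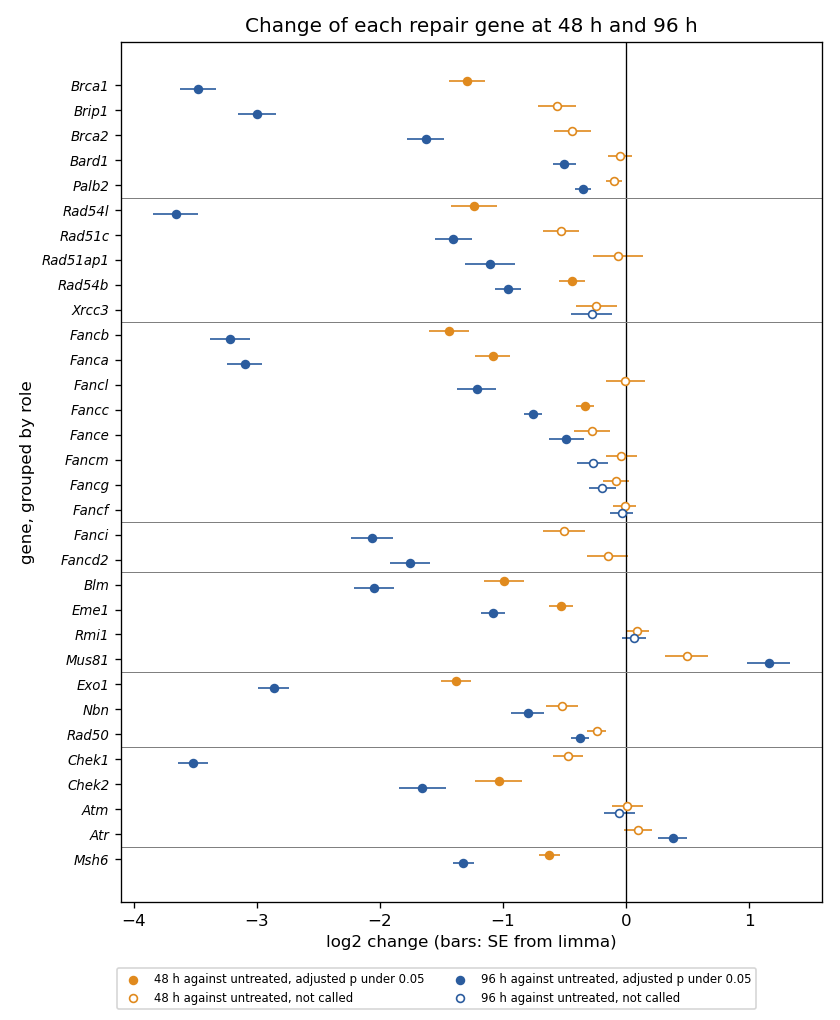
Log2 change of each of the 32 genes (y axis, by role) at 48 h (orange) and 96 h (blue) against untreated cells, with limma's SE as bars; filled points had an adjusted p under 0.05. At 96 h the points spread from -3.66 (Rad54l) to 1.16 (Mus81), and within the Fanconi core from -3.22 to -0.03.

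Fancd2 and Fanci, the paired substrates of the core complex, were called lower at 96 h and not at 48 h. Fancd2 read 5.95, 6.04 and 6.39 in untreated cells, 6.39 and 6.39 at 12 h, 6.41, 6.13 and 6.71 at 24 h, then 6.05 and 5.91 at 48 h, and 4.34 and 4.40 at 96 h. Fancd2 read higher at 12 h and 24 h than in the first 2 untreated replicates, and of its 48 h arrays replicate 2 lay just below the untreated range and replicate 1 inside it. It changed by -0.15 ± 0.16 at 48 h (adjusted p = 0.68) and fell by 1.75 ± 0.16 after 96 h (adjusted p = 5.99e-05). Fanci read 6.18, 5.82 and 6.45 in untreated cells, 6.37 and 6.46 at 12 h, 6.12, 6.38 and 6.50 at 24 h, then 5.61 and 5.68 at 48 h, and 4.20 and 3.96 at 96 h. In Fanci the 48 h arrays were below the lowest untreated array by a small margin. It changed by -0.50 ± 0.17 at 48 h (adjusted p = 0.131) and fell by 2.06 ± 0.17 after 96 h (adjusted p = 2.76e-05). From 48 h to 96 h the change was -1.61 for Fancd2 and -1.56 for Fanci.

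Members that process joint molecules went in both directions. Blm, the helicase that dissolves double Holliday junctions, fell. Blm read 6.17, 6.24 and 6.57 in untreated cells, 6.30 and 6.20 at 12 h, 6.15, 5.91 and 6.47 at 24 h, then 5.45 and 5.23 at 48 h, and 4.31 and 4.25 at 96 h. All late arrays lay below all earlier ones. It fell by 0.99 ± 0.16 (adjusted p = 0.00892) within 48 h and fell by 2.05 ± 0.16 after 96 h (adjusted p = 2.1e-05), or 4.13-fold. Rmi1, which works with BLM in dissolution, was not called. Rmi1 read 7.35, 7.17 and 7.29 in untreated cells, 7.46 and 7.76 at 12 h, 7.34, 7.53 and 7.54 at 24 h, then 7.35 and 7.37 at 48 h, and 7.31 and 7.36 at 96 h. Its highest arrays were at 12 h and 24 h, and those of 48 h and 96 h lay in the untreated range or just above it. The change was 0.07 ± 0.10 at 96 h (adjusted p = 0.757) on the cluster used and 0.14 ± 0.16 on a second one.

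Eme1 and Mus81 encode the 2 subunits of a nuclease that cuts joint molecules, and their RNAs went in opposite directions. Eme1 read 4.86, 5.16 and 5.18 in untreated cells, 5.03 and 5.13 at 12 h, 5.16, 5.10 and 5.17 at 24 h, then 4.63 and 4.44 at 48 h, and 4.01 and 3.97 at 96 h. Eme1 fell by 0.53 ± 0.10 (adjusted p = 0.0141) within 48 h and fell by 1.08 ± 0.10 after 96 h (adjusted p = 4.65e-05), or 2.11-fold, to a mean of 3.99 near the low end. Mus81 read 5.92, 5.95 and 6.24 in untreated cells, 6.22 and 6.04 at 12 h, 5.81, 5.89 and 6.41 at 24 h, then 6.40 and 6.65 at 48 h, and 7.17 and 7.22 at 96 h. Mus81 had 1 high array at 24 h, and both 48 h and both 96 h arrays stood above every untreated one. It changed by 0.49 ± 0.17 at 48 h (adjusted p = 0.146) and rose by 1.16 ± 0.17 after 96 h (adjusted p = 0.00104), or 2.23-fold. With that, Mus81 was the member with the largest rise.

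Of the 3 genes of end resection and break sensing measured, all were lower at 96 h and Exo1 also at 48 h. EXO1 is a nuclease of long-range resection that also serves mismatch repair. Exo1 read 7.25, 7.50 and 7.50 in untreated cells, 7.27 and 7.60 at 12 h, 7.17, 7.19 and 7.27 at 24 h, then 6.20 and 5.88 at 48 h, and 4.61 and 4.50 at 96 h. Its late groups lay apart from each other and from all earlier arrays. It fell by 1.38 ± 0.13 (adjusted p = 0.00085) within 48 h and fell by 2.86 ± 0.13 after 96 h (adjusted p = 4.13e-07), or 7.27-fold. Nbn and Rad50 belong to the complex that finds broken ends. Nbn fell by 0.80 ± 0.13 after 96 h (adjusted p = 0.00178) after -0.52 ± 0.13 at 48 h (adjusted p = 0.0508), while its second cluster, which reads at the low end, gave a change of -0.0026 at 96 h and no call. Rad50 fell by 0.37 ± 0.08 after 96 h (adjusted p = 0.00556), from an untreated mean of 7.79 to 7.42.

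The 4 checkpoint kinases split, with 2 lower and 1 higher at 96 h. Chek1 encodes the kinase that ATR activates at stalled forks. Chek1 read 8.86, 9.02 and 9.09 in untreated cells, 9.01 and 9.36 at 12 h, 9.29, 9.42 and 9.18 at 24 h, then 8.59 and 8.44 at 48 h, and 5.37 and 5.58 at 96 h. Its 24 h arrays all lay above the untreated ones, the 48 h arrays below them, and the 96 h arrays far lower. It changed by -0.47 ± 0.12 at 48 h (adjusted p = 0.0554) and fell by 3.51 ± 0.12 after 96 h (adjusted p = 1.14e-07), or 11.4-fold. Chek2 encodes the kinase downstream of ATM. Chek2 read 6.87, 6.77 and 7.10 in untreated cells, 6.85 and 7.08 at 12 h, 6.54, 7.16 and 6.79 at 24 h, then 5.97 and 5.79 at 48 h, and 5.46 and 5.05 at 96 h. Both late groups lay below all earlier arrays, and its 96 h replicates were spread. It fell by 1.03 ± 0.19 (adjusted p = 0.014) within 48 h, a call that ended without either 48 h replicate, and fell by 1.65 ± 0.19 after 96 h (adjusted p = 0.000202).

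Atm and Atr, the kinases upstream of them, were not called lower. Atm read 7.30, 7.65 and 7.44 in untreated cells, 7.26 and 7.24 at 12 h, 7.39, 7.53 and 7.21 at 24 h, then 7.37 and 7.58 at 48 h, and 7.29 and 7.53 at 96 h. The 24 h, 48 h and 96 h arrays of Atm overlapped the untreated ones and both 12 h arrays lay just below them, with changes of 0.01 ± 0.13 at 48 h (adjusted p = 0.977) and -0.05 ± 0.13 at 96 h (adjusted p = 0.868). Atr read 7.28, 7.06 and 7.24 in untreated cells, 7.16 and 7.16 at 12 h, 7.47, 7.38 and 7.14 at 24 h, then 7.21 and 7.37 at 48 h, and 7.43 and 7.72 at 96 h. Both 96 h arrays of Atr lay above all untreated arrays, but its 24 h replicate 1 lay above the lower of them. It rose by 0.38 ± 0.12 after 96 h (adjusted p = 0.0429), or 1.30-fold. That call ended without any 1 of the 3 untreated replicates, without 96 h replicate 2 and under other settings. Msh6, a subunit of the MutS alpha mismatch sensor, moved with the fallen genes. Msh6 read 8.98, 9.04 and 8.86 in untreated cells, 8.89 and 8.88 at 12 h, 8.85, 8.89 and 8.64 at 24 h, then 8.32 and 8.36 at 48 h, and 7.72 and 7.56 at 96 h. Every late array lay below every earlier one, and it fell by 0.62 ± 0.09 (adjusted p = 0.00406) within 48 h and fell by 1.32 ± 0.09 after 96 h (adjusted p = 5.79e-06), or 2.50-fold.

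**Figure D4:**
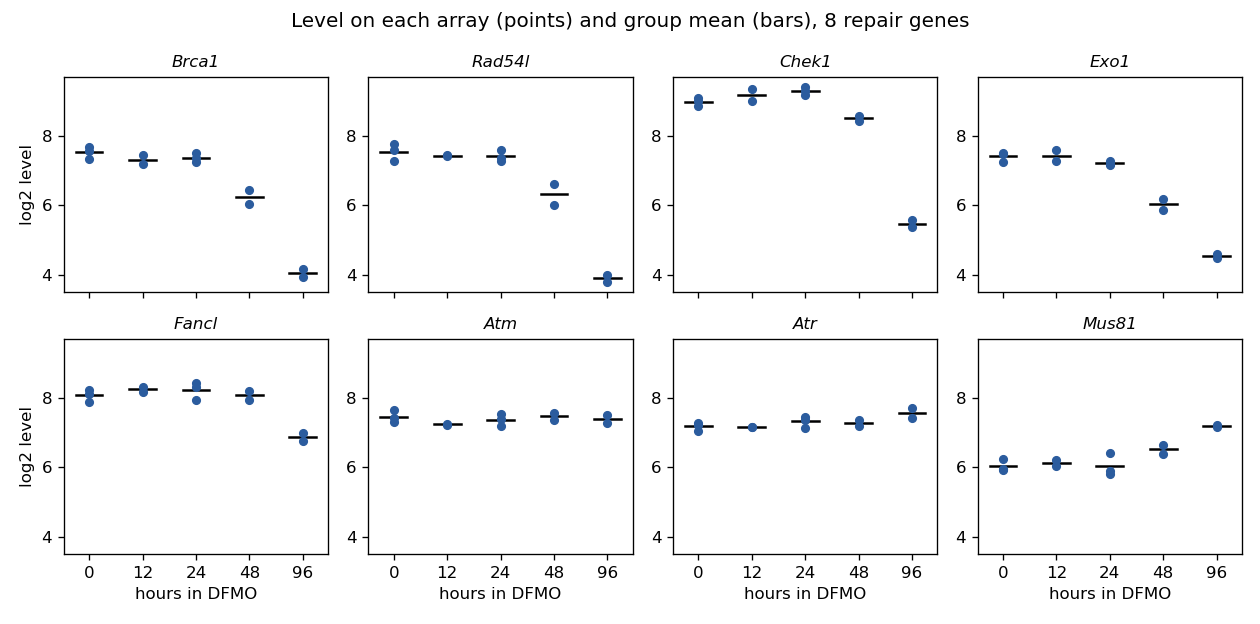
Log2 level on each array (points) and group mean (bars) by hours in DFMO for 8 genes, on a common y axis. Brca1, Rad54l, Chek1 and Exo1 go down in 2 steps, Fancl only at 96 h, Atm ends at 7.29 and 7.53, and Atr (7.43 and 7.72) and Mus81 (7.17 and 7.22) end above their untreated arrays.

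The fall was also tested step by step. Between 24 h and 48 h 10 of 32 members fell and 0 rose, where 1.14% and 0.527% of all genes did (1.67% in either direction), with 20 members at an unadjusted p under 0.05 in either direction by limma, against 11.6% of all genes. Between 48 h and 96 h 19 fell and 0 rose, where 4.29% and 4.35% of all genes did, with 22 at an unadjusted p under 0.05, against 21.3% of all genes. Both steps were called lower for 9 members, and no more than the 1.14% of all genes lower in the first step can share that. As a description with no test, the 48 h change amounted to between 0.56% (Fancl) and 65.3% (Nbn) of the 96 h change in the 24 fallen genes, with a median of 37.3%, and it was under 50% in 20 of them. Fancl, Rad51ap1 (5.47%), Fancd2 (8.43%), Bard1 (10.3%) and Chek1 (13.4%) had the smallest shares. Where the 96 h mean lay near the low end of the scale, the 96 h loss is understated and the share can read too high. The 24 h to 48 h count is the least stable. It became 1 when only the 24 h and 48 h arrays were fitted, where lower calls over all genes went from 228 to 46. It also shrank when either 48 h replicate was left out, as did lower calls over all genes, and such a fit leaves a single array at 48 h. The later count shrank without 48 h replicate 1, again with fewer lower calls over all genes. These steps share the 48 h arrays, so a high or low 48 h array moves both in opposite ways.

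By 96 h 9 members had a mean within 0.5 of the leukocyte median (Brca1, Brip1, Eme1, Fanca, Fanci, Palb2, Rad51ap1, Rad54b and Rad54l), and no member did in untreated cells. Near the low end a log2 difference understates a loss.

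Other genes of the same pathway went in both directions, more of them down. Of 70 further homologous recombination and Fanconi genes listed 67 were measured. At 48 h 17 of these fell and 2 rose, against 3.17% and 2.65% of all genes. At 96 h 30 fell and 7 rose, against 10.1% and 11.8% of all genes, with a median of -0.33. The rises were thus near the share over all genes at both times. The list also holds Xrcc1, a gene of single-strand break repair. Clspn, the adaptor through which ATR activates CHEK1, fell by 3.45 ± 0.11. Fignl1, an ATPase of recombination, fell by 2.99 ± 0.11 and Rpa2, of the single-strand binding complex, fell by 2.95 ± 0.23. Timeless, of the fork protection complex, fell by 2.79 ± 0.10, Mms22l, which acts at stalled forks, fell by 2.65 ± 0.12, and Dna2, a resection nuclease, fell by 2.59 ± 0.16. The risen genes were Rev1 (0.97 ± 0.13), Babam1 (0.69 ± 0.21), Abraxas1 (0.66 ± 0.12), Rad52 (0.58 ± 0.06), Recql5 (0.55 ± 0.09), Babam2 (0.38 ± 0.10) and Rad17 (0.17 ± 0.05). Babam1, Babam2 and Abraxas1 encode subunits of the BRCA1-A complex, which holds BRCA1 at ubiquitin marks, and Rad52 and Abraxas1 were the ones already higher at 48 h, by 0.44 and 0.57. Among those lower at 48 h were Topbp1 (-0.74), which activates ATR, and Rpa1 (-0.66).

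Repair lists outside recombination gave other counts, and no test was made between lists. Over all genes 3.17% fell and 2.65% rose at 48 h, and 10.1% fell and 11.8% rose at 96 h. Of 14 end joining genes 0 fell and 2 rose at 48 h, Paxx (0.85 ± 0.10) and Shld1 (0.44 ± 0.11), and 2 fell and 4 rose at 96 h, with a median of 0.18. Paxx, a factor that steadies Ku at ends, rose by 2.00 ± 0.10 at 96 h, Xrcc4 by 0.66 ± 0.12, Trp53bp1 by 0.55 ± 0.08 and Prkdc by 0.55 ± 0.15. Xrcc6, a Ku subunit, fell by 0.73 ± 0.14 and Rif1, which limits end resection, fell by 0.70 ± 0.11. Of 19 nucleotide excision genes 1 fell and 9 rose at 96 h, with a median of 0.31. Ercc5, an excision nuclease, rose by 1.76 ± 0.08 after 0.56 at 48 h, Uvssa by 1.20 ± 0.14, Xpa by 0.70 ± 0.15 and Xpc by 0.63 ± 0.12. Of 21 genes of base excision and single-strand break repair 9 fell and 1 rose, with a median of -0.26, led by Lig1 (-3.54 ± 0.16) and Fen1 (-2.81 ± 0.27), which also join and trim Okazaki fragments. Aptx, an end-cleaning enzyme, was the one that rose (0.68 ± 0.09). Of 4 mismatch repair genes other than Msh6, Msh3 (-0.75 ± 0.06) and Pms2 (-0.44 ± 0.13) fell.

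**Figure D5:**
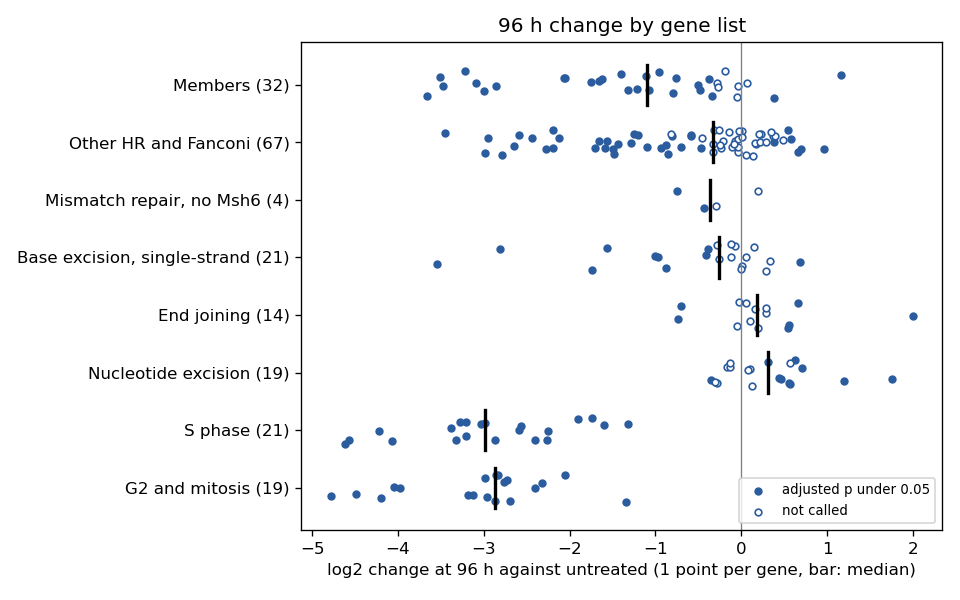
Log2 change at 96 h against untreated cells (x axis) for each gene (points, filled where the adjusted p was under 0.05) of 8 lists, with the number of genes measured in brackets and the median as a bar. The medians run from -2.98 (S phase) over -1.09 (the 32 members) to 0.31 (nucleotide excision repair).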

How the data were processed

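RNA of 12 samples was read on Affymetrix MoGene 1.0 ST arrays. The authors deposited log2 values for 35399 probe clusters, and the submitters' processing notes name RMA and Partek, while of the build nothing is stated in the labels. Clusters with 1 gene symbol (21789) were kept, named through the platform annotation and RefSeq GRCm38.p6, with the cluster of highest mean taken for each of 19938 genes; 1621 clusters with several symbols and 11989 with none were left out. limma 3.58.1 (R 4.3.3) fitted 1 mean per group over all 12 arrays, with Benjamini-Hochberg adjustment over all genes, after being tested on simulated data. The number of arrays limits the precision. Members, gene lists and tests were chosen with earlier results of these data known.

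Array values are printed for the 20 members ranked first by the F test, and for members not called or higher at 96 h. Of other lists, genes called at 48 h, the 6 largest changes at 96 h and genes higher at 96 h could be named; Thy1, Lyz2, Cdh1 and Tek were named on that basis. Deviations of same-numbered untreated and 24 h arrays correlated with r of 0.153, 0.287 and 0.581, but replicate 1 untreated and replicate 2 at 24 h gave 0.235 too; with the replicate number as a block, 0 members were called at 24 h as without it. Alternatives covered clusters, filter, centring, block, array weights, prior, groups fitted and each array left out.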

Additional observations from a re-analysis of the deposited data

Results flagged for a closer look

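The change of a member between 2 successive times under the drug was tested directly, and 29 such steps passed the threshold with limma, all downward. Of these 19 lay between 48 h and 96 h, where 4.29% of all genes fell and 4.35% rose. The other 10 lay between 24 h and 48 h, where 1.14% and 0.527% did. Both steps share the 48 h arrays. Of the 10, 1 was kept when only the 24 h and 48 h arrays were fitted, where lower calls over all genes went from 228 to 46. Between 48 h and 96 h the log2 changes were -3.04 for Chek1, -2.44 for Brip1, -2.42 for Rad54l, -2.19 for Brca1 and -2.01 for Fanca. They were -1.78 for Fancb, -1.61 for Fancd2, -1.56 for Fanci, -1.48 for Exo1, -1.21 for Fancl and -1.19 for Brca2. Blm changed by -1.06, Rad51ap1 by -1.05, Rad51c by -0.88, Msh6 by -0.70, Eme1 by -0.55, Rad54b by -0.51, Bard1 by -0.45 and Fancc by -0.43. Between 24 h and 48 h the changes were -1.20 for Fancb, -1.18 for Exo1, -1.14 for Brca1, -1.10 for Rad54l and -0.95 for Chek2. They were -0.84 for Blm, -0.82 for Fanca, -0.78 for Chek1, -0.61 for Eme1 and -0.46 for Msh6.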

How the results depend on the processing

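Of the 24 members lower at 96 h, 22 to 24 kept their call under each alternative other than leaving arrays out, and the call lost most often was that of Fance. The level filter kept genes whose highest group mean was at least 5, so a fallen gene could pass through its untreated level alone. It removed Palb2 and Rad54b before testing, and the 22 it tested all kept their call. Given that rule, those kept calls are no separate support. With arrays left out, only the call of Fance was lost. The rises are less stable: 2 members higher at 96 h became 1 (Mus81) with all clusters tested, the replicate block, the trend and robust prior, only the 2 groups compared or the 3 deviating arrays left out, and 1 to 2 when each array was left out in turn. At 48 h 11 members lower became 7 without the 3 deviating arrays and 6 to 12 with single arrays left out. Members higher at 48 h went from 0 to 1 with the replicate block, array weights or the 3 arrays left out, and 0 to 1 with single arrays left out. From 24 h to 48 h 10 lower became 6 with all clusters tested, 1 with only the 2 groups compared and 1 to 10 with single arrays left out, whose medians ran from -0.45 to -0.22; 0 higher became 1 with the block or without the 3 arrays, and 0 to 1 otherwise. From 48 h to 96 h 19 lower became 12 to 20 with single arrays left out, and 0 higher became 1 with the level filter, block, array weights, prior, 2 groups or 3 arrays, and 0 to 1 with single arrays left out. The level filter moved the median to -1.32 at 96 h and to -0.88 for the last step, since it tested 27 members. Mismatch repair genes lower at 96 h went from 2 to 1 with all clusters tested and 1 to 2 with single arrays left out. The cause of the other shifts was not tested. Centring turned the split over all genes at 48 h from 632 lower and 528 higher to 552 and 644, and the block to 732 and 810. From 24 h to 48 h, lower calls over all genes went from 228 to 46 with only the 2 groups compared. With all clusters tested they were 165 of 35399. With 1 of the 48 h replicates left out, lower calls over all genes shrank at 48 h and in both steps.

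Signs turned only in changes that were not called at that time. At 48 h Fancf became 0.0232 after centring, 0.0601 with the replicate block, 0.0382 with array weights and 0.0666 without the 3 arrays. Fancl at 48 h became 0.0268, 0.0555, 0.00342 and 0.069 under the same settings. Atm at 48 h became -0.0372 with the block and -0.00177 without the 3 arrays. Fancf at 96 h became 0.0365 with the block, 0.0146 with array weights and 0.043 without the 3 arrays. With single arrays left out, the changes ran from -0.137 to 0.124 for Fancl at 48 h, -0.0974 to 0.12 for Atm at 48 h, -0.103 to 0.0603 for Fancm at 48 h, -0.0843 to 0.0666 for Fancf at 48 h. They ran from -0.232 to 0.13 for Bard1 at 48 h, -0.309 to 0.188 for Rad51ap1 at 48 h, -0.171 to 0.0626 for Atm at 96 h, -0.0842 to 0.043 for Fancf at 96 h. Deviations of same-numbered arrays correlated with those of untreated cells with r of 0.189 and -0.255 at 12 h, -0.0746 and 0.157 at 48 h, and -0.136 and -0.0798 at 96 h. Between 24 h and 48 h same-numbered arrays gave 0.35 and 0.419, and between 12 h and 48 h or 96 h 0.12 and 0.148, while 48 h and 96 h gave -0.0494. With 2 shared numbers in each of these, whether the numbers pair the samples is not settled. With the replicate block, Xrcc3 and Fancm were gained at 96 h, and at the 24 h to 48 h step Chek2 was lost and Brca2 gained. Genes near the low end of the scale, and groups of 2 arrays, limit what can be seen.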
